A study of Mus musculus with 5 samples.

Results

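CD8 and conventional CD4 T cells were selected from single-cell RNA profiles of CD45+ cells of mouse dermis by the transcripts they carried. A member had at least 1 unique molecular identifier (UMI, 1 captured transcript molecule) of the CD3 chains Cd3d, Cd3e or Cd3g and at least 1 of the coreceptors Cd4 or Cd8b1. Cells with a Foxp3 UMI, with both Ctla4 and Il2ra, with 5 or more Ctla2a UMIs, or with any UMI of C1qa, C1qb or C1qc were left out, which sets aside regulatory T cells, Ctla2a-high T cells and macrophages. Of 6162 cells, 2662 had a CD3 UMI and 168 of those had a coreceptor UMI. The Foxp3 condition left 151 of them, the Ctla4 and Il2ra condition 146, the Ctla2a condition 126 and the C1q condition 110. These 110 members were 71 Cd8b1-positive cells, 38 Cd4-positive cells and 1 cell with both coreceptors. All genes named in these conditions were used to choose the cells, so their levels are given as description without a test.

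The study, whose title concerns hair growth, oncostatin M and JAK-STAT5 signalling, profiled live CD45+ cells, sorted from C57BL/6 dermis, in 10x Genomics droplets. It had 5 libraries of 1 sample each. The label P50_Depil5D was read as skin 5 days after depilation. The labels P45, P50, P63 and P80 give the postnatal day of mice without a stated treatment. No other genotype or agent is given. The labels do not say whether the depilated mice were P50 at depilation or at collection, and do not give the number of animals behind a library. With 1 library per group, differences between ages or with depilation have no replicate check and no p-value. Comparisons between cell populations were made within each library and had 4 or 5 libraries as replicates.

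T cells recognise peptides through a receptor that signals through the CD3 chains. CD8, a dimer of Cd8a and Cd8b1 chains or of Cd8a alone, binds MHC class I and marks cells that mostly become cytotoxic, whereas CD4 binds MHC class II and marks cells that help other leukocytes. Conventional CD4 T cells are those without the Foxp3 programme of regulatory T cells. In skin, many CD8 and CD4 T cells are memory cells that stay in the tissue rather than return to lymph, and mouse epidermis also holds a separate population of gamma-delta T cells with a dendritic shape.

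Few UMIs stood behind each assignment. The members held 278603 UMIs in all, of which P50_Depil5D gave 52705, P45 gave 125338, P50 gave 22744, P63 gave 42981 and P80 gave 34835. The whole libraries held between 1032621 UMIs in P80 and 7491878 in P45. The median member had 1745 UMIs. Of the 71 Cd8b1-positive cells 37 carried only 1 coreceptor UMI, as did 34 of the 38 Cd4-positive cells, so 1 captured molecule decided the side of most Cd4-positive cells. For the Ctla2a threshold, 8 members had 4 UMIs of Ctla2a, just inside, and 3 cells that met every other condition had 5, just outside. No Ctla2a UMI was found in 52 of the members.

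Some members also carried transcripts of other cell types. Cells with 10 or more UMIs of marker genes of keratinocytes, dendritic cells, macrophages and monocytes, or fibroblasts are called mixed cells below. This limit was chosen after the data had been seen. The marker lists hold H2-Ab1, H2-Aa, H2-Eb1, Cd74, Krt5, Sfn, Lyz2 and Ly6c2 among others. Leaving out the mixed cells takes out UMIs of listed genes by construction, so a call they lose there is no separate result. There were 19 mixed members, 11 of them Cd8b1-positive and 8 Cd4-positive, with 12 in P45, 3 in P63, 2 in P80 and 1 each in P50_Depil5D and P50. They held 42.39% of all member UMIs, 84.38% of those in P80 and 57.94% of those in P45, against 6.269% in P50_Depil5D. The largest of them, in P80, had 20224 UMIs, of which 613 were keratinocyte markers. Dendritic cell markers reached the limit in 16 members, macrophage and monocyte markers in 7, keratinocyte markers in 6 and fibroblast markers in 0. Without mixed cells 91 members with 160499 UMIs were left, 60 Cd8b1-positive, 30 Cd4-positive and 1 with both, and 4 of them with 5440 UMIs were in P80. Each result below is given with all members and, where it changed, without the mixed cells.

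**Figure D1:**
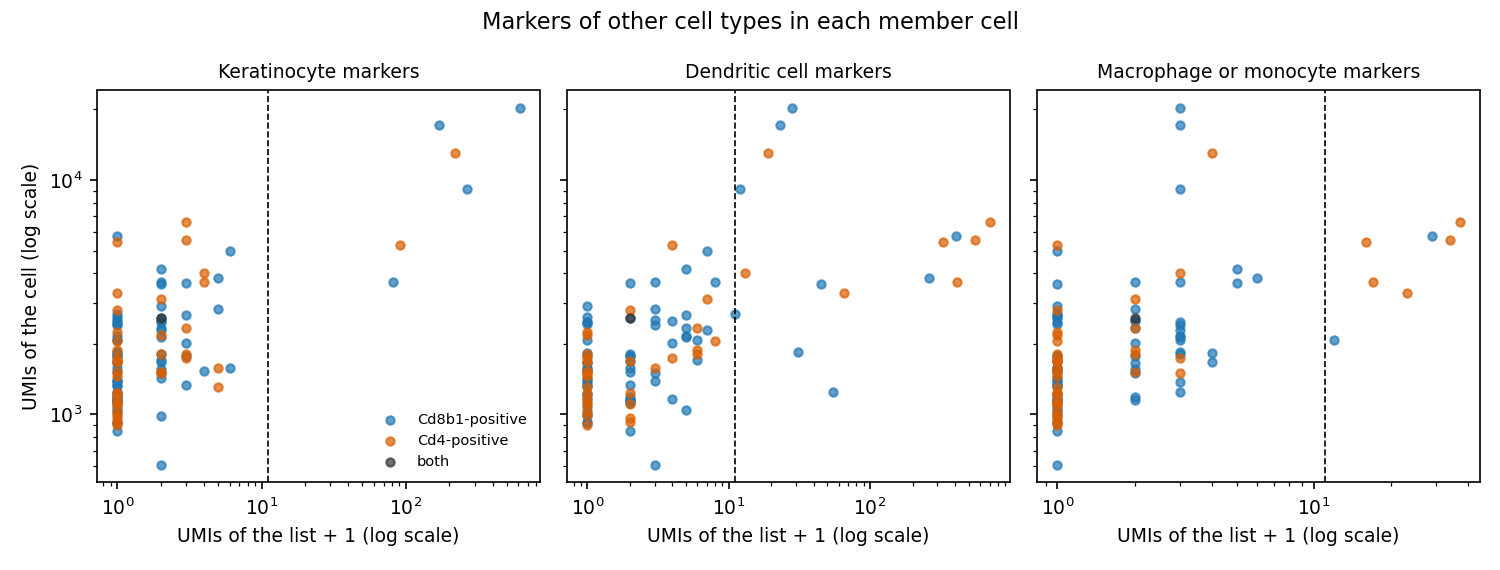
UMIs of keratinocyte, dendritic cell, and macrophage or monocyte markers in each member (horizontal axis, UMIs plus 1, log scale) against all UMIs of the cell (vertical axis, log scale), coloured by Cd8b1-positive, Cd4-positive or both, with a dashed line at the limit of 10 UMIs. Cells on or right of a line are mixed cells, 6 by keratinocyte, 16 by dendritic cell and 7 by macrophage or monocyte markers, and the largest had 20224 UMIs.

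Summed over cells, the keratinocyte list reached between 0 and 25350 counts per 1000000 UMIs (CPM) in the Cd8b1-positive cells of the libraries and between 61.2 and 8524 CPM in the Cd4-positive cells. Without mixed cells it reached at most 919 CPM and 1002 CPM in these populations. The dendritic cell list lay between 192 and 10670 CPM in Cd8b1-positive and between 266 and 38550 CPM in Cd4-positive cells, and at most at 1471 CPM and 2099 CPM without mixed cells. Of the keratinocyte list 12 of 12 genes were detected in Cd8b1-positive and 11 of 12 in Cd4-positive cells, Krt79 being at 0 in the Cd4-positive ones. Of 12 dendritic cell markers 8 were detected in Cd8b1-positive and 9 in Cd4-positive cells, with Ccl22 and Clec9a at 0 in both. Of 12 macrophage and monocyte markers 7 were detected in each population, with Fcgr1 at 0 in both beside the 3 C1q genes of the selection. Of 11 NK cell markers 7 were detected in Cd8b1-positive and 2 in Cd4-positive cells, and Klrb1c, Klra4, Klra8 and Eomes were at 0 in both. The libraries P50_Depil5D, P50, P63 and P80 shared between 134 and 193 cell barcodes in each pair, P45 shared between 0 and 7 with each of the others, and 10 members had a barcode that another library also held.

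Cd8a, the second CD8 chain, had not been used to choose the cells and followed the coreceptor label. It was detected in 42 of 71 Cd8b1-positive cells (59.2%, 95% Clopper-Pearson interval 46.8 to 70.7) and in 0 of 38 Cd4-positive cells, which allows a share of up to 7.89% of cells with a UMI, not of cells that express the gene. Cd8a had a UMI in 8 of 1115 Ctla2a-high T cells, a group chosen without a coreceptor condition that may hold some CD8 cells. It had a UMI in 2 of 628 keratinocyte-marked cells, a cell type that should lack it. Median depths were 1368 UMIs in Ctla2a-high T cells and 2413 in keratinocyte-marked cells, against 1766 UMIs in Cd8b1-positive and 1717 in Cd4-positive cells. Cd28, the costimulatory receptor of conventional T cells, was detected in 35 of 71 Cd8b1-positive and 27 of 38 Cd4-positive cells, against 73 of 1115 Ctla2a-high T cells and 10 of 628 keratinocyte-marked cells. Cd5, an inhibitory receptor of alpha-beta T cells, was sparse, with a UMI in 9 of 71 Cd8b1-positive and 7 of 38 Cd4-positive cells and in 9 of 1115 Ctla2a-high T cells. Of the defining genes, Cd8b1 ranged between 373 CPM in P80 and 1364 CPM in P50 in Cd8b1-positive cells. Cd4 ranged between 282 CPM in P45 and 734 CPM in P50_Depil5D in Cd4-positive cells. Intervals for shares and levels here and below cover counting error only.

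The label was less secure on its conventional side. Cd4 was rarely caught even in cells chosen by regulatory T cell genes: of 97 cells with a CD3 UMI that instead had Foxp3, or both Ctla4 and Il2ra, only 14 had a Cd4 UMI (14.4%, interval 8.12 to 23.0). The pair of Ctla4 and Il2ra was also caught in few of the Foxp3 cells, since of 67 cells with a Foxp3 UMI 44 had Ctla4, 14 had Il2ra and 11 had both. Among the Cd4-positive members Ctla4 was detected in 15 of 38 cells, against 4 of 71 Cd8b1-positive members, with no Il2ra beside it by the selection. The Cd4-positive members are therefore T cells with a Cd4 UMI in which neither Foxp3 nor the pair of Ctla4 and Il2ra was caught.

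The counting intervals for the share of CD8 cells overlapped between all libraries, which is not a test of a difference. Cd8b1-positive cells were 23 of 33 members in P50_Depil5D (69.7%, interval 51.3 to 84.4), against 6 of 16 in P50 (37.5%, 15.2 to 64.6). They were 21 of 34 in P45 (61.8%, 43.6 to 77.8) and 15 of 21 in P63 (71.4%, 47.8 to 88.7). In P80 all 6 members were Cd8b1-positive, an interval that reaches down to 54.1%. Members made up 2.21% of cells in P50_Depil5D (1.53 to 3.09), against 1.09% in P50 (0.627 to 1.77), and 1.59% in P45, 3.65% in P63 and 1.23% in P80. Of the CD3-positive cells alone they were 4.28% in P50_Depil5D, 4.19% in P45, 2.27% in P50, 9.72% in P63 and 3.85% in P80. P63 had the highest share on both bases, with an interval of 6.12 to 14.5% of CD3-positive cells that overlaps P80 and no other library. Without the mixed cells it also overlaps P50_Depil5D, and with cells thinned to 1000 UMIs P50_Depil5D and P45.

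**Figure D2:**
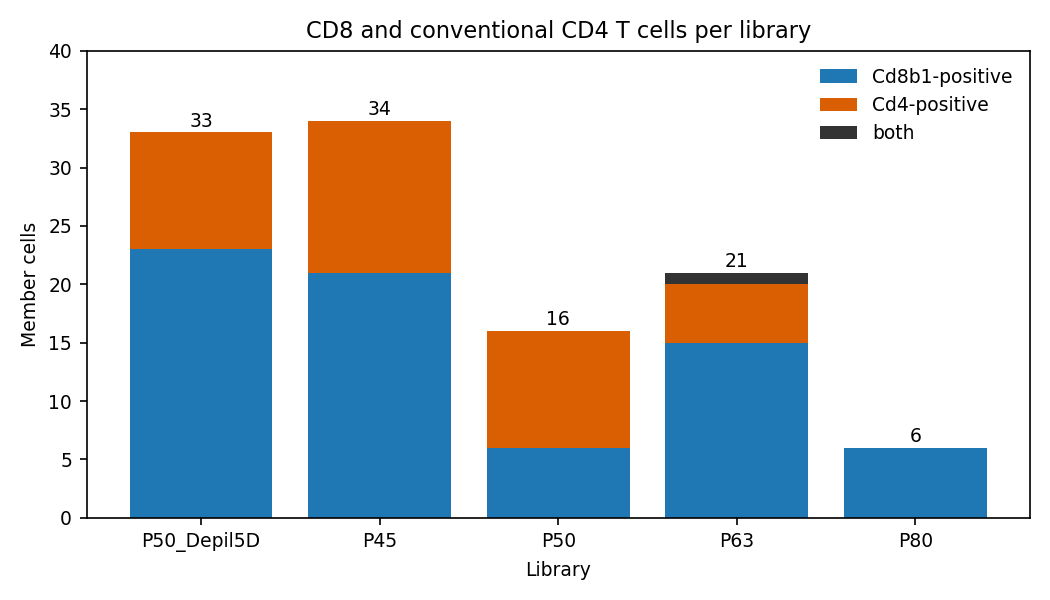
Number of members in each library, with P50_Depil5D at the left and the 4 other libraries in order of age, as stacked bars of Cd8b1-positive, Cd4-positive and double-positive cells with the total above each bar. P45 had the most members, 34, and P80 had 6, all Cd8b1-positive.

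Cd8b1-positive cells had higher levels of a few CD8 lineage and cytotoxic genes than Cd4-positive cells of the same libraries, and lower levels of a few others. Higher in Cd8b1-positive cells were the chemokines Ccl5 and Ccl4, the granule membrane gene Nkg7, Cd8a, the chemokine receptor Cxcr6 and the surface antigen Ly6c2. Lower were the kinase gene Pim1, the adaptor Samsn1, the ubiquitin ligase Uhrf2 and the NF-kB inhibitor Nfkbia. These 10 genes were called both with all cells and without the mixed cells. The test was edgeR's quasi-likelihood test on UMI sums with the library as a block, at a Benjamini-Hochberg adjusted p under 0.05, in the 4 libraries P50_Depil5D, P45, P50 and P63, since P80 had no Cd4-positive cell. Of 1388 genes tested 20 were called, or 1.44%, with 12 higher (0.865%) and 8 lower (0.576%); without the mixed cells 16 of 885 were called, or 1.81%, with 9 higher (1.02%) and 7 lower (0.791%). Without the library as a block edgeR called 3 of the 1388, namely Ccl5, Ccl4 and Cd8a. DESeq2's Wald test with the block also called 3, namely Ccl4, Cd8a and Nkg7, and did not call Ccl5. With the block, leaving out P45 left 2 calls, leaving out P50 left 7 and leaving out P63 left 6.

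Ccl5 encodes a chemokine released by cytotoxic and memory T cells (chr11:83525778-83530518, minus strand, mm10). It reached 3658 CPM in P50_Depil5D, 4209 in P45, 341 in P50 and 2196 in P63 in Cd8b1-positive cells, against 122, 94.2, 215 and 355 CPM in the Cd4-positive cells of the same libraries in that order. Cd8b1-positive cells were higher in 4 of 4 libraries, by little in P50 and by far in the others. The log2 fold change was 4.18 (SE 0.44, edgeR adjusted p = 2.7e-07), and 3.90 (SE 0.38, adjusted p = 8.67e-22) without the mixed cells. By cells, Ccl5 was detected in 47 of 71 Cd8b1-positive and 8 of 38 Cd4-positive cells, and after thinning each cell to 1000 UMIs in 60.6% and 14.7% of them. Keratinocyte-marked cells had it in 17 of 628.

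Ccl4, a chemokine that attracts other leukocytes, followed the same pattern at a lower level (chr11:83662584-83664683, plus strand). In Cd8b1-positive cells it stood at 853 CPM in P50_Depil5D, 291 in P45, 341 in P50 and 1785 in P63, whereas Cd4-positive cells held 2 UMIs, both in P45. The log2 fold change was 4.55 (SE 0.69, edgeR adjusted p = 0.000113). Both of those UMIs lay in mixed cells, and without these the level was at least 14.0-fold higher in Cd8b1-positive cells, taken against a floor of 3 counts over the Cd4-positive group (edgeR adjusted p = 6.24e-08).

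Cd8a (chr6:71373427-71379173, plus strand) stood at 743 CPM in P50_Depil5D, 222 in P45, 341 in P50 and 686 in P63 in Cd8b1-positive cells and at 0 in every library in Cd4-positive cells. That is at least 14.2-fold higher against the same floor (edgeR adjusted p = 0.000232), and at least 9.27-fold without the mixed cells. Nkg7, a granule protein needed for target cell killing (chr7:43437073-43438249, plus strand), reached 1788 CPM in P50_Depil5D, 1204 in P45, 1819 in P50 and 1716 in P63 in Cd8b1-positive cells. Cd4-positive cells had 489, 169, 143 and 888 CPM of it in those libraries, lower in each. Its log2 fold change was 2.16 (SE 0.37, edgeR adjusted p = 0.000662). It was detected in 61 of 71 Cd8b1-positive and 12 of 38 Cd4-positive cells, and in 51 of 628 keratinocyte-marked cells.

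Cxcr6, a receptor of memory T cells that stay in tissues (chr9:123806475-123811760, plus strand), stood at 523 CPM in P50_Depil5D, 166 in P45, 568 in P50 and 686 in P63 in Cd8b1-positive cells. In Cd4-positive cells it stood at 0, 37.7, 71.7 and 178 CPM in the same order. Cd8b1-positive cells were higher in 4 of 4 libraries, with a log2 fold change of 2.65 (SE 0.62, edgeR adjusted p = 0.0233), and in 3 of 4 without the mixed cells (2.43, SE 0.69, adjusted p = 0.0325). Ly6c2, an antigen of memory CD8 cells that shares sequence with Ly6c1 so that reads of the pair may be split, had 41 UMIs in Cd8b1-positive cells and 0 in Cd4-positive cells. It was at 0 in the Cd8b1-positive cells of P50 as well, and was at least 8.83-fold higher over the 4 libraries (edgeR adjusted p = 0.00366). Ly6c2 is also on the macrophage and monocyte list that helps define mixed cells. Its call was lost without the block, in DESeq2's Wald test and with P50 left out.

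On the other side, Pim1, a kinase gene switched on by STAT5 after cytokine signals (chr17:29490753-29496112, plus strand), was lower in Cd8b1-positive cells in 4 of 4 libraries. It had 413 CPM in P50_Depil5D, 318 in P45, 227 in P50 and 378 in P63 in Cd8b1-positive cells, against 1285, 621, 1219 and 1332 CPM in Cd4-positive cells. The groups did not overlap, and the log2 fold change was -1.51 (SE 0.36, edgeR adjusted p = 0.0257). Nfkbia, the inhibitor that NF-kB itself induces (chr12:55489410-55492647, minus strand), had 880, 498, 1592 and 858 CPM in Cd8b1-positive cells of those libraries, against 2263, 1864, 2438 and 1065 CPM in Cd4-positive cells. It was lower within each library although the ranges overlap between libraries, at a log2 fold change of -1.16 (SE 0.29, edgeR adjusted p = 0.0352). Samsn1, an adaptor that restrains lymphocyte activation, and Uhrf2 had log2 fold changes of -1.89 (SE 0.46, adjusted p = 0.0299) and -2.78 (SE 0.70, adjusted p = 0.0352) by edgeR, lower in 4 of 4 libraries. Uhrf2 rested on 5 UMIs in Cd8b1-positive and 26 in Cd4-positive cells. Pim1, Samsn1, Nfkbia and the higher gene Cxcr6 lost their call in each fit that left out 1 of the 4 libraries. These genes and Uhrf2 also lost it in edgeR without the block and in DESeq2's Wald test with the block. Their direction was kept in these fits.

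**Figure D3:**
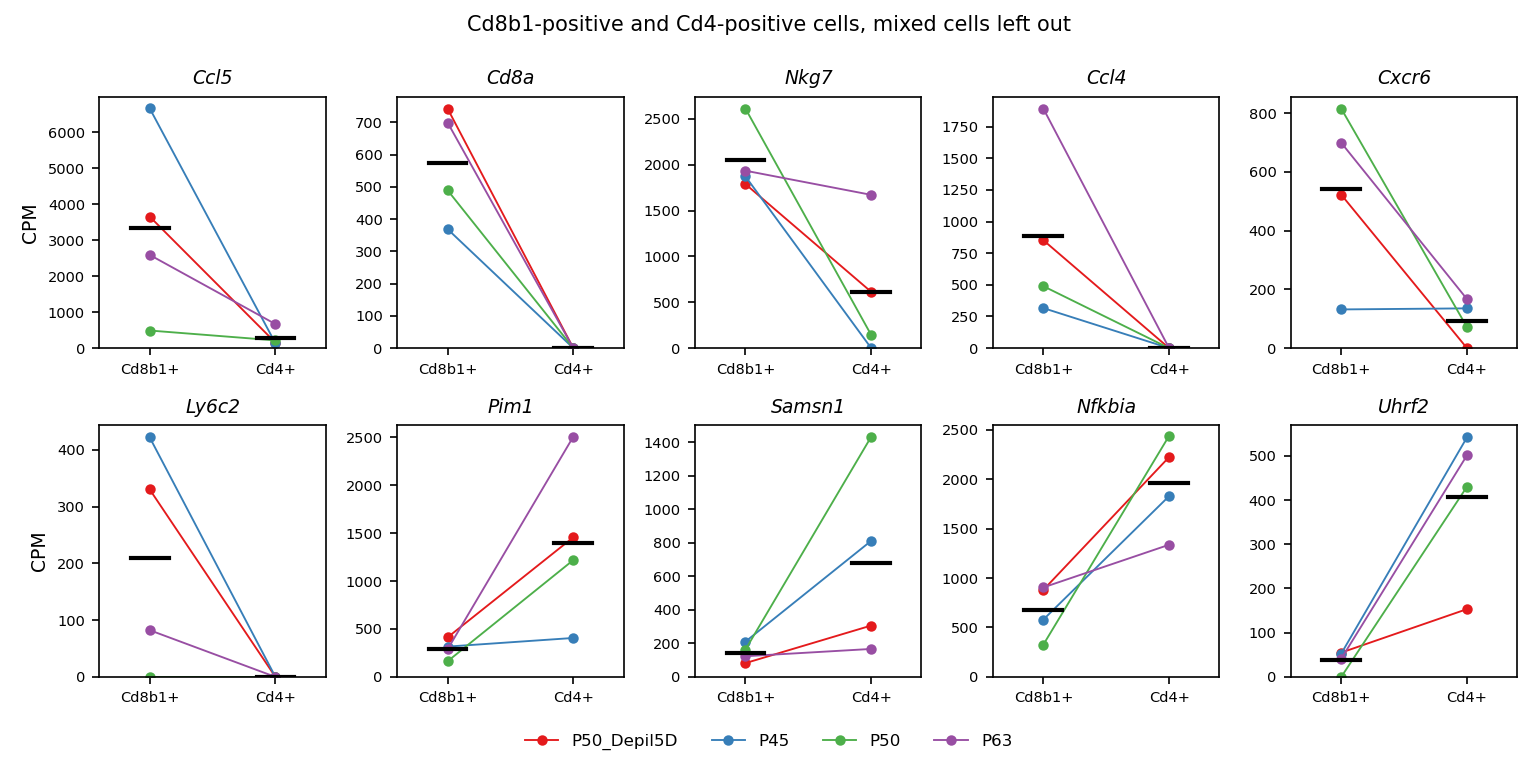
CPM, on linear axes from 0, of the 10 genes called with and without the mixed cells, in Cd8b1-positive and Cd4-positive cells without the mixed cells. Each point is 1 of 4 libraries, lines join the populations of a library and the black bar is the mean; Ccl5, Ccl4, Cd8a, Nkg7, Cxcr6 and Ly6c2 have the higher mean in Cd8b1-positive cells, and Pim1, Samsn1, Nfkbia and Uhrf2 the lower one.

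The other 10 calls with all cells, Elovl6, Hmgcs1, Msmo1, Hsd17b12, Paqr7 and Ms4a4b higher and Ccl27a, Apoe, Krt5 and Lyz2 lower, were not made without the mixed cells. Elovl6, which lengthens fatty acids, had 124 UMIs in Cd8b1-positive and 0 in Cd4-positive cells, of which 2 were left without the mixed cells, and it was not tested there. Apoe, a lipid carrier of macrophages, was lower in Cd8b1-positive cells with all cells (log2 fold change -1.52, SE 0.37, edgeR adjusted p = 0.0289) and at 0.04 (adjusted p = 0.998) without the mixed cells. Ms4a4b, a membrane gene of T cells, was higher at 1.95 (SE 0.50, edgeR adjusted p = 0.039), and had 1.41 (adjusted p = 0.195) without them. Other genes were called only without the mixed cells. There the chemokine Xcl1 had 24 UMIs in Cd8b1-positive and 0 in Cd4-positive cells, at least 3.65-fold higher (edgeR adjusted p = 0.0077, against 0.368 with all cells). The receptor Klrd1, shared by NK and CD8 cells, had 22 UMIs in Cd8b1-positive and 0 in Cd4-positive cells, at least 3.34-fold higher (adjusted p = 0.0366, against 0.458). Ikzf2, the factor Helios, and the phosphatase Dusp1 were lower in Cd8b1-positive cells by -2.32 (SE 0.48, adjusted p = 0.00023, against 0.187) and -1.34 (SE 0.35, adjusted p = 0.0108, against 0.35) on the log2 scale. Ikzf2 belongs to a list of 13 regulatory T cell genes, of which 4 were tested here. Their median log2 fold change was -1.38 with all cells, with none called. Without the mixed cells it was -1.53, with Ikzf2 alone called, so this list stood higher in the Cd4-positive cells.

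By list, the calls were few outside the CD8 and cytotoxic genes. Of 13 CD8 lineage genes 7 were tested and 3 were higher in Cd8b1-positive cells, with a median log2 fold change of 2.16 beside 0.04 over all genes tested; without the mixed cells 5 of 7 were higher. Of 16 cytotoxic genes 7 were tested and 3 were higher, namely Ccl5, Ccl4 and Nkg7, and none was lower. Of 16 residency genes 11 were tested and only Cxcr6 was called. Itgae, the integrin that holds T cells to epithelium, had 165 CPM in P50_Depil5D, 83.1 in P45, 114 in P50 and 549 in P63 in Cd8b1-positive cells, against 184, 56.5, 71.7 and 0 CPM in Cd4-positive cells, a difference short of the threshold (log2 fold change 1.09, SE 0.69, edgeR adjusted p = 0.823). Runx3, the factor that sets the CD8 lineage, stood at 1.30 (SE 0.59, adjusted p = 0.532) with higher values in 4 of 4 libraries. Markers of 2 other lymphocytes lay beside these genes, and their part in the result was not tested. The list of 12 genes of Ctla2a-high epidermal T cells, which holds Nkg7, Xcl1, Cxcr6 and Itgae, summed to between 976 and 4483 CPM in the Cd8b1-positive and between 1004 and 2263 CPM in the Cd4-positive cells. Without the mixed cells the list summed to between 4401 and 5882 CPM in Cd8b1-positive and between 1004 and 3508 CPM in Cd4-positive cells, ranges that do not overlap. The NK cell list summed to between 0 and 1454 CPM in Cd8b1-positive and between 0 and 1337 CPM in Cd4-positive cells, and without the mixed cells to at most 2056 and 167 CPM.

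The CD4 lineage and T cell receptor lists gave no call in either direction, at 3 tested of 14 genes and 11 tested of 20. Icos, a costimulatory receptor of helper cells, had 385 CPM in P50_Depil5D, 111 in P45, 455 in P50 and 515 in P63 in Cd8b1-positive cells, against 1346, 320, 860 and 710 CPM in Cd4-positive cells. It was lower in Cd8b1-positive cells in 4 of 4 libraries and missed the threshold (log2 fold change -1.22, SE 0.39, edgeR adjusted p = 0.155). Tnfrsf4, the receptor OX40, stood at -1.43 (SE 0.50, adjusted p = 0.221), and Cd28 at -0.27 (SE 0.38, adjusted p = 0.981). Zbtb7b, the factor that sets the CD4 lineage, was detected in 4 of 71 Cd8b1-positive and 0 of 38 Cd4-positive cells, at or below its share of 60 of 628 in keratinocyte-marked cells. Of 33 JAK-STAT genes 11 were tested and 1 was called, the lower Pim1, and of 16 immediate early genes 15 were tested and 1 was called, the lower Nfkbia. None was called of 11 heat shock, 5 cell cycle or 2 type 17 genes tested.

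The windows around the start sites of these genes were read for motifs because the called genes moved in opposite directions. The motifs were chosen after the values had been seen. RUNX factors bind TGTGGT, searched on both strands (ACCACA on the other), and NF-kB binds sites that read GGG, a pair of any bases and TTTCC, also searched on both strands. The windows, from RefSeq on GRCm38.p6, run from 250 bases before to 50 after the start and hold 300 bases. Of the 6 genes higher in Cd8b1-positive cells 4 had a window, and 3 of these, Nkg7, Cxcr6 and Ly6c2, held the RUNX motif, whereas Cd8a did not. Of the 4 lower genes all had a window, none held the RUNX motif and 1, Nfkbia, held the NF-kB motif. Of all windows that RefSeq gave, 16.76% held the RUNX motif and 1.629% the NF-kB motif. The windows of Nkg7 (chr7:43436888-43437187, plus strand), Cxcr6 (chr9:123806227-123806526, plus strand) and Nfkbia (chr12:55492598-55492897, minus strand) are printed 5′ to 3′ with the motif in capitals, as the matches on each side of the comparison. A match describes letters in the window and not a bound site.
Nkg7: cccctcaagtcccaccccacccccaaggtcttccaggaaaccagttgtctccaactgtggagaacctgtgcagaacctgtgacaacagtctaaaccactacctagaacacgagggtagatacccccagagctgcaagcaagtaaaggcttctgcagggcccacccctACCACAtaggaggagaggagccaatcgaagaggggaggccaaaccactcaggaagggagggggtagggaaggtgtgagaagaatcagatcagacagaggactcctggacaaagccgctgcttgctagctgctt
Cxcr6: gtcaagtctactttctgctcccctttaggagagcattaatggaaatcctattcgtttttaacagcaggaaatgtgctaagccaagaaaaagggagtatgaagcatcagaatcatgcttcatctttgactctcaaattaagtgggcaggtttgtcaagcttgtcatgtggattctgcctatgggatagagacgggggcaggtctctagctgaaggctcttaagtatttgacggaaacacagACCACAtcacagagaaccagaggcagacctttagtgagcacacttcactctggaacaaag
Nfkbia: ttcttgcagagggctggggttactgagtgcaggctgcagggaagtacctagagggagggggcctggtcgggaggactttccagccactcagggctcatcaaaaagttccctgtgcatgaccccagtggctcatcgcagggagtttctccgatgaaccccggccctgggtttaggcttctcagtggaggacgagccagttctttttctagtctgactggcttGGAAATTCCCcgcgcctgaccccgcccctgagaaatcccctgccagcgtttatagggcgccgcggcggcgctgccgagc

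Against the Ctla2a-high T cells, members had higher levels of receptors of conventional T cells and of the chemokine Ccl5, and lower levels of many genes that are abundant in the other population. The comparison group were 1115 cells with a CD3 UMI, 5 or more UMIs of the cathepsin inhibitor gene Ctla2a and no Foxp3 or C1q UMI. Higher in members were Ccl5, Cd8a, Cd28, Cd6, Cd5, Icos, Tnfrsf4, Il7r, Gzmb and the membrane genes Ms4a4b and Ms4a6b. Lower were the chemokine Xcl1, the signalling chains Fcer1g and Cd247, the surface receptor Cd7, the granzyme Gzmc, the growth factor Areg and Rgs1. In edgeR's test over 5 libraries with the library as a block 267 of 7950 genes were called, or 3.36%, with 53 higher (0.667%) and 214 lower (2.69%), and the median gene stood at -0.32 on the log2 scale. Without the mixed cells 393 of 6302 were called, or 6.24%, with 91 higher (1.44%) and 302 lower (4.79%). The mixed cells were also 133 of the 1115 Ctla2a-high T cells, with 33.65% of their UMIs. Leaving out P50 left 164 calls and leaving out P50_Depil5D left 126.

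Ccl5 was higher in members in 5 of 5 libraries, with 2561 CPM in P50_Depil5D, 2465 in P45, 264 in P50, 2536 in P63 and 431 in P80, against 37.7, 179, 69.1, 417 and 55.1 CPM in Ctla2a-high T cells. The log2 fold change was 3.43 (SE 0.37, edgeR adjusted p = 1.58e-17). Cd28 had 854 CPM in P50_Depil5D, 184 in P45, 616 in P50, 651 in P63 and 115 in P80 in members, against 28.3, 82.4, 24.4, 67.3 and 220 CPM in Ctla2a-high T cells. P80 went the other way there, and without the mixed cells members were higher in 5 of 5 libraries (log2 fold change 2.85, SE 0.43, adjusted p = 8.42e-09 with all cells; 2.91, SE 0.36, adjusted p = 1.54e-13 without, by edgeR). Cd6, a receptor that binds ALCAM and sits near the T cell receptor, stood at 3.99 (SE 0.71, adjusted p = 3.03e-06) and Cd5 at 3.36 (SE 0.75, adjusted p = 0.000591), each higher in 5 of 5 libraries. With the mixed cells left out, Cd5 was higher in 3, lower in P63 and at 0 in both populations of P80. Icos stood at 2.82 (SE 0.44, adjusted p = 4.5e-08), higher in 4 of 5 libraries with P80 the exception.

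The cytokine receptor Il7r, which keeps memory T cells alive, stood at 2.002 (SE 0.58, edgeR adjusted p = 0.0202) and was higher in members in 5 of 5 libraries. Gzmb, a granzyme, had 209 CPM in P50_Depil5D, 87.8 in P45, 308 in P50, 140 in P63 and 28.7 in P80 in members, against 9.43, 1.96, 4.06, 67.3 and 55.1 CPM in Ctla2a-high T cells. P80 was again the exception (log2 fold change 3.70, SE 0.61, edgeR adjusted p = 2.21e-07). Gzma, another granzyme, was called higher at 4.73 (adjusted p = 0.00017) although all of its 42 UMIs in members came from P45. The transcription factor gene Rora, found in several memory and innate-like lymphocytes, stood at 1.88 (SE 0.45, adjusted p = 0.00157).

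Xcl1 was the lower gene with the smallest p, at 266 CPM in P50_Depil5D, 63.8 in P45, 176 in P50, 23.3 in P63 and 28.7 in P80 in members, against 2615, 1116, 3244, 1603 and 2260 CPM in Ctla2a-high T cells. No library of members came near any library of Ctla2a-high T cells (log2 fold change -4.55, SE 0.35, edgeR adjusted p = 2.62e-34). Fcer1g, a signalling chain of gamma-delta T, NK and myeloid cells, had 94.9, 551, 44.0, 93.1 and 0 CPM in members of those libraries, against 2533, 2032, 3103, 1926 and 2315 CPM in Ctla2a-high T cells. Of its 79 UMIs in members 22 were left without the mixed cells (log2 fold change -4.36, SE 0.35, adjusted p = 3.92e-32 with all cells). Areg, an EGF receptor ligand of tissue repair, had 7 UMIs in members, in P45 and P50 only, and 3252 in Ctla2a-high T cells (log2 fold change -5.01, SE 0.49, adjusted p = 2.21e-21). Atp1b1, a subunit of the sodium pump, had 0 UMIs in members and 596 in Ctla2a-high T cells, at least 24.1-fold lower (adjusted p = 5.78e-12).

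Genes of killing were split between the populations. Nkg7, higher in Cd8b1-positive than in Cd4-positive cells, was lower in members than in Ctla2a-high T cells in 5 of 5 libraries (log2 fold change -1.87, SE 0.27, edgeR adjusted p = 1.07e-09), with between 373 and 1629 CPM in members, against between 2087 and 4244 CPM in Ctla2a-high T cells. Of 14 cytotoxic genes tested 5 were higher and 5 lower in members, and 4 and 4 of 12 without the mixed cells. Among 17 T cell receptor genes tested Cd28, Cd6 and Cd5 were higher, and the lower ones included Cd247, Thy1 and Trat1. Of 15 residency genes tested 5 were lower, led by Rgs1 (log2 fold change -2.80, SE 0.27, adjusted p = 1.68e-22), and 0 were higher, while Itgae and Cxcr6 did not pass the threshold. Of 31 JAK-STAT genes tested Il21r, Il7r and Pim1 were higher, and Bcl2, Il2rb and Il12rb2 were lower. With the mixed cells left out, Cish, a feedback inhibitor of STAT5 signalling, was called higher among 27 tested and Il21r was not. Pim1 was at 1.19 (SE 0.37, adjusted p = 0.0407), and Il2rb, the shared receptor chain of interleukins 2 and 15, at -1.81 (SE 0.43, adjusted p = 0.0016). Of 12 heat shock genes tested 2, Ddit4 and Hspa1a, were higher, and of 14 cell cycle genes 0 were called.

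Markers of other cell types moved with this comparison, and their part in it was not tested. Of 12 keratinocyte markers tested 5 were lower in members, and of 6 dendritic cell markers 3 were lower. Without the mixed cells 0 of 7 and 0 of 4 were called, but these same markers define the mixed cells. For Klf2, a factor of recirculating T cells, the log2 fold change was 1.17 (SE 0.47, edgeR adjusted p = 0.193) with all cells and 2.15 (SE 0.46, adjusted p = 0.00019) without the mixed cells. Of the naive and recirculation list 1 of 10 tested genes, Il7r, was higher with all cells, and 4 of 8, Klf2, Dapl1, Il7r and Ly6c2, were higher without the mixed cells.

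**Figure D4:**
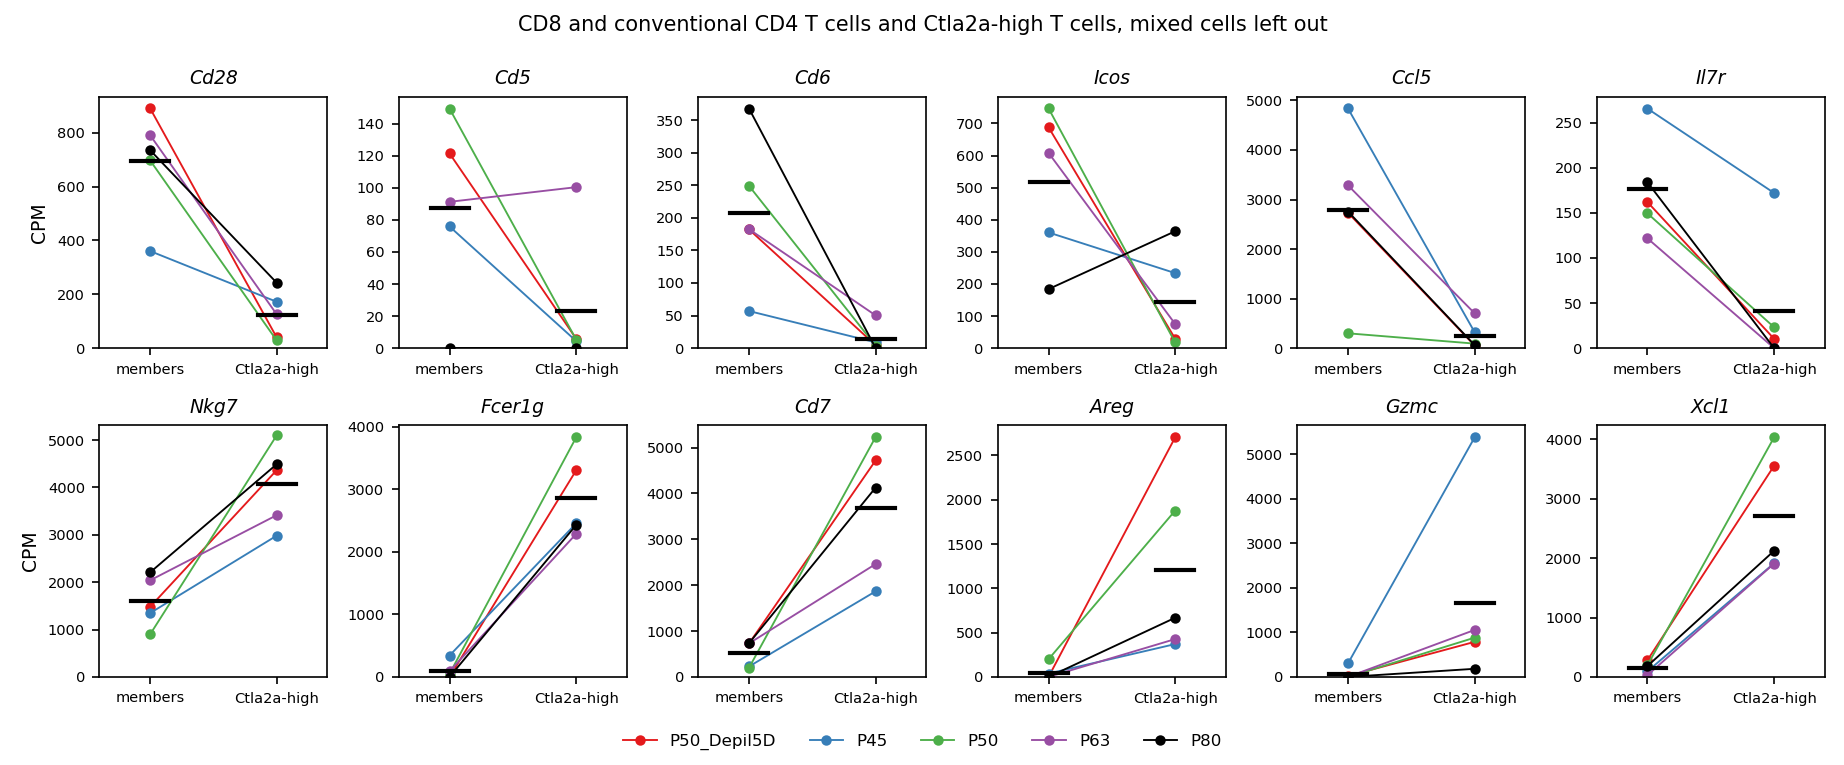
CPM, on linear axes from 0, of 12 genes in members and in Ctla2a-high T cells without the mixed cells. Each point is 1 of 5 libraries, lines join the populations of a library and the black bar is the mean; the 6 upper genes have the higher mean in members and the 6 lower genes in Ctla2a-high T cells, while Icos in P80 and Cd5 in P63 go the other way.

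Cd4-positive members and the regulatory-rule cells, the 97 cells with a CD3 UMI set aside for Foxp3 or for Ctla4 with Il2ra that met the Ctla2a and C1q conditions, differed in few genes. Of 2000 genes tested in 4 libraries, P80 having no Cd4-positive cell, 8 were called by edgeR, or 0.4%, with 1 higher (0.05%) and 7 lower (0.35%) in Cd4-positive members. The higher gene was Actb, encoding cytoplasmic actin, and the lower ones were Cd74, H2-Ab1, H2-Eb1, H2-Aa, Defb6, Tff1 and Tnfrsf9. Without the mixed cells 7 of 1014 were called, or 0.69%, with 1 higher (0.0986%), again Actb, and 6 lower (0.592%). Without the library as a block edgeR called none, with 55 genes at an unadjusted p under 0.05, and DESeq2's Wald test with the block called none, with 28. Leaving out P50 or P50_Depil5D also left edgeR no call, with 38 and 52 genes at an unadjusted p under 0.05, and leaving out P45 gave 19 calls.

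Actb had 19697 CPM in P50_Depil5D, 8286 in P45, 15916 in P50 and 25215 in P63 in Cd4-positive members, against 8082, 9759, 7318 and 4102 CPM in regulatory-rule cells. It was higher in 3 of 4 libraries and lower in P45 (log2 fold change 1.04, SE 0.24, edgeR adjusted p = 0.0186). Tnfrsf9, a costimulatory receptor of activated and regulatory T cells, had 0, 37.7, 215 and 0 CPM in Cd4-positive members of those libraries, against 491, 196, 561 and 223 CPM in regulatory-rule cells. It was lower in 4 of 4 libraries (log2 fold change -2.61, SE 0.66, edgeR adjusted p = 0.0371) and missed the threshold without the mixed cells (-2.01, SE 0.69, adjusted p = 0.246). Tnfrsf4 was called only without the mixed cells, at -1.32 (SE 0.42, adjusted p = 0.324) with all cells and -1.48 (SE 0.36, adjusted p = 0.0155) without the mixed cells, lower in 4 of 4 libraries in both. Tff1, a secreted trefoil peptide, was lower in both, with 1 UMI in Cd4-positive members and 51 in regulatory-rule cells (log2 fold change -4.01, SE 0.98, adjusted p = 0.0293).

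MHC class II genes, which antigen-presenting cells express, were among the lower calls and moved with the mixed cells. Mixed cells were 8 of 38 Cd4-positive members and 25 of 97 regulatory-rule cells, and held 49.25% of the UMIs of the regulatory-rule cells. H2-Ab1 had 551 CPM in P50_Depil5D, 9133 in P45, 71.7 in P50 and 0 in P63 in Cd4-positive members, against 3145, 6405, 3869 and 5037 CPM in regulatory-rule cells (log2 fold change -2.69, SE 0.48, edgeR adjusted p = 0.000207). Without the mixed cells H2-Ab1 stood at 0.19 (SE 0.77, edgeR adjusted p = 0.987). H2-Ab1 is on the dendritic cell list that defines mixed cells, so their removal took out its UMIs by construction. Genes shared with conventional T cells did not pass the threshold in this comparison, Cd28 at 0.41 (SE 0.42, adjusted p = 0.999) and Icos at 0.01 (SE 0.38, adjusted p = 0.999).

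Genes of tissue residency were also counted by cell, the set being chosen after the values had been seen. Of 71 Cd8b1-positive cells 43 had a UMI of Itgae, Cxcr6, Itga1 or Zfp683. Of 38 Cd4-positive cells 10 had one. Cytokines were rare. Ifng, the effector cytokine of cytotoxic and type 1 helper cells, was detected in 12 of 71 Cd8b1-positive and 2 of 38 Cd4-positive cells, against 4 of 628 keratinocyte-marked cells, and Il17a in 0 of 71 and 1 of 38. Osm, the cytokine of the study's title, had a UMI in 1 of 71 Cd8b1-positive and 2 of 38 Cd4-positive cells, against 10 of 1115 Ctla2a-high T cells and 0 of 628 keratinocyte-marked cells.

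**Figure D5:**
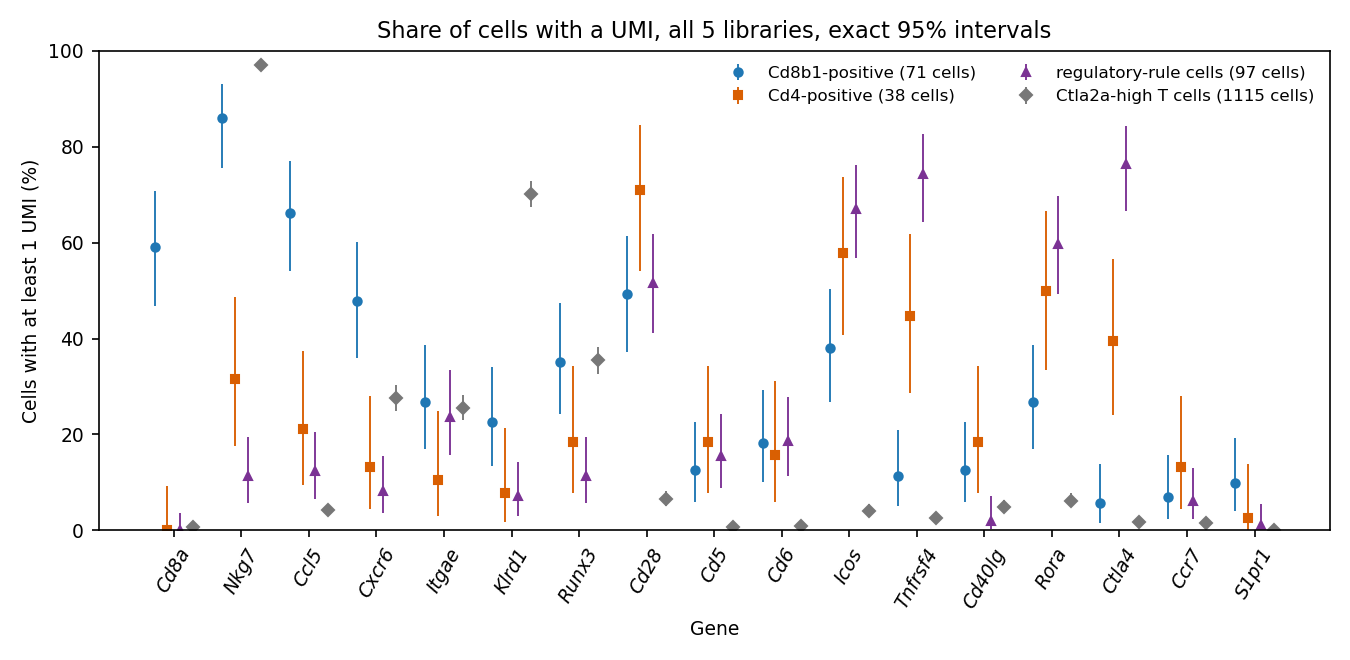
Percent of cells with at least 1 UMI of each gene, over all 5 libraries and without thinning, in Cd8b1-positive members, Cd4-positive members, regulatory-rule cells and Ctla2a-high T cells, with exact 95% intervals. Cd8a was detected in 59.2% of Cd8b1-positive and 0% of Cd4-positive cells, and Ccl5 in 66.2% and 21.1%; Ctla4 was used by the selection.

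In depilated skin, P50_Depil5D against P50, the members held more Ccl5, Ccl4 and Ctsw, and less Samsn1, Tnfrsf4 and Tubb5. The comparison is of 1 library with 1 library, of 33 with 16 members, and of 69.7% with 37.5% Cd8b1-positive cells, and the part of that share in the levels of CD8 genes was not tested. Of 483 genes with at least 20 UMIs over both libraries, 47 differed 2-fold or more on a scale with 50 CPM added, or 9.73%; without the mixed cells it was 47 of 452, or 10.4%. Ccl5 had 2561 CPM in P50_Depil5D (135 UMIs), against 264 CPM in P50 (6 UMIs), a ratio of 9.71 with a counting interval of 4.35 to 26.9. Within Cd8b1-positive cells alone it had 3658 CPM in P50_Depil5D, against 341 CPM from 3 UMIs in P50. Of the other libraries, P45 had 2465, P63 had 2536 and P80 had 431 CPM of Ccl5 in their members, so that P50 and P80 stood low.

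Nkg7 did not follow Ccl5: among Cd8b1-positive cells it had 1788 CPM in P50_Depil5D, against 1819 CPM in P50, and in all members the ratio was 1.75 (1.03 to 3.12). Ccl4 had 31 UMIs in P50_Depil5D, against 3 in P50 (ratio 4.46, interval 1.39 to 22.8), Ctsw, a cysteine protease of killer cells, 43 against 6 (3.09, 1.31 to 8.89) and Cd7, a receptor of T and NK cells, 36 against 4 (3.88, 1.39 to 15.02). Ifngr1, a chain of the interferon-gamma receptor, had 26 UMIs in P50_Depil5D, against 1 in P50 (11.2, 1.84 to 459.99). Of 7 T cell receptor genes described none passed 2-fold, and the costimulators stayed close, Cd28 at a ratio of 1.39 (0.75 to 2.74) and Icos at 0.97 (0.53 to 1.87). Lyz2, a lysozyme of myeloid cells, was also high with 21 UMIs in P50_Depil5D and 0 in P50, but 1 UMI was left in P50_Depil5D without the mixed cells.

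Lower in P50_Depil5D were Samsn1, with 8 UMIs (152 CPM) in P50_Depil5D, against 23 (1011 CPM) in P50, a ratio of 0.150 (0.058 to 0.348), and Tnfrsf4, with 9 against 22 (0.177, 0.072 to 0.399). Tubb5, a tubulin of dividing cells, had 645 CPM in P50_Depil5D, against 2506 CPM in P50 (ratio 0.257, 0.163 to 0.400). In members of P45, P63 and P80, Samsn1 had 239, 163 and 0 CPM. Tnfrsf4 had 160, 69.8 and 115 CPM there, and Tubb5 had 535, 1163 and 890 CPM. For these genes P50 therefore stood higher than every other library. The histone gene H2afz stood at 0.269 and Stmn1, a regulator of microtubules in dividing cells, at 0.324. Without the 1 mixed cell of P50 and the 1 of P50_Depil5D, Stmn1 had 364 CPM in P50_Depil5D, against 648 CPM in P50, less than a 2-fold difference, and H2afz had 425 CPM in P50_Depil5D, against 1096 CPM in P50. Of the 7 residency and activation genes described, 2 passed 2-fold higher and 1 lower, with a median log2 ratio of 0.39. The higher ones were Cd69, an early activation antigen, at a ratio of 2.59 (0.995 to 8.55), and Rgs2 at 2.33 (0.885 to 7.75), intervals that hold 1. Of the 4 cell cycle genes that could be described 3 passed 2-fold lower, with a median log2 ratio of -1.65. Of the 5 cytotoxic genes 3 passed 2-fold higher, with a median of 1.46. Over all 483 genes the median was 0.06, and 9.73% passed 2-fold in either direction. These list medians are with all cells. Without the mixed cells Tubb5 had 688 CPM in P50_Depil5D, against 2042 CPM in P50. Members with a UMI of Mki67, a marker of division, were 5 of 71 Cd8b1-positive and 3 of 38 Cd4-positive cells over all libraries.

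Between the oldest and the youngest mice, P80 against P45, the largest differences lay in transcripts that the mixed cells held. Of 958 genes with enough UMIs 319 differed 2-fold or more, or 33.3%, and without the mixed cells 103 of 314, or 32.8%, from 5440 UMIs in 4 cells of P80. Higher in P80 were keratinocyte genes such as Sfn, with 87 UMIs of which 0 were left without the mixed cells, and Sostdc1, with 63 of which 1 was left. Lower in P80 were the lipid synthesis gene Scd1, with 0 UMIs in P80, against 184 in P45, at least 17.05-fold lower and at 0 in both libraries without the mixed cells. Cd74, the class II invariant chain, had 689 CPM in P80, against 10316 CPM in P45, and without the mixed cells 919 CPM in P80, against 360 CPM in P45. Ccl5 had 431 CPM in P80, against 2465 CPM in P45 (ratio 0.175, 0.097 to 0.293), and without the mixed cells 2757 CPM in P80, against 4838 CPM in P45. Nkg7 had 373 CPM in P80, against 766 CPM in P45, with all cells, and 2206 CPM in P80, against 1347 CPM in P45, without the mixed cells. Cd8a had 258 CPM in P80, against 128 CPM in P45 (ratio 2.02, 0.79 to 4.86), and without the mixed cells 1654 CPM from 9 UMIs in P80, against 266 CPM from 14 UMIs in P45. All members of P80 were Cd8b1-positive, against 61.8% in P45, and the part of that share in these levels was not tested.

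Along the ages P45, P50, P63 and P80, and without the mixed cells, members held 4838, 299, 3286 and 2757 CPM of Ccl5, and 2733 CPM in P50_Depil5D, so that the P50 library alone was low. Cd28 held 360, 697, 791 and 735 CPM at those ages and 891 CPM in P50_Depil5D, lowest in P45. Nkg7 held 1347, 897, 2038 and 2206 CPM and 1478 CPM in P50_Depil5D. The share of Cd8b1-positive members, at 68.2, 33.3, 72.2 and 100%, ranked those ages as Nkg7 did, but not as Ccl5 or Cd28 did. The part of that share in the levels was not tested. With 1 library at each age, an effect of age and a difference between libraries cannot be told apart.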

How the data were processed

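Live CD45+ dermal cells were profiled by droplet sequencing in 5 libraries, 1 per group. The deposited matrices hold whole-number UMI counts per gene and barcode, made by the authors; per the submitters' processing notes the build was mm10 and Seurat was used, without version or role. No aligner, counting tool or annotation is named (not given in the sources used here). All libraries list the same 27998 genes, 27645 of them found in GENCODE vM21, the source of the coordinates.

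A minimum of 200 genes and a maximum of 10% mitochondrial UMIs kept 6162 of 6223 barcodes. Scrublet (scanpy 1.11.5) marked 23 cells, too few for a caller that has worked, so its calls were used only as an alternative and doublets remain. The members and gene lists were chosen with earlier results of these data known. UMIs were summed per library and population. CPM is per 1000000 UMIs of that sum, and carries exact Poisson, Clopper-Pearson or conditional 95% intervals, with a floor of 3 counts for zeros. Populations were compared with edgeR 4.0.16 (R 4.3.3), quasi-likelihood test, TMM scaling, library as block, on genes with at least 20 UMIs over the sums and UMIs in at least 3 sums, with Benjamini-Hochberg adjustment over all genes tested and a threshold of 0.05. The block follows from the design, since both populations of a pair come from 1 library. The steps were tested on simulated data with known changes. At a log2 change of 2, the test recovered 86.8% of higher and 55.6% of lower genes in Cd8b1-positive over Cd4-positive cells. For members over Ctla2a-high T cells it recovered 23.7% and 9.52%, and 84.9% and 18.5% at a change of 3. For Cd4-positive members over regulatory-rule cells it recovered 73.2% and 40% at a change of 2. A gene that was not called may therefore still differ. With the library as block, the p-values rest on how the difference between populations varied from library to library. They leave out the spread in level that both populations of a library share. The libraries also differ in age and depilation. Genes used by the selection were kept in library sizes and not tested. Between single libraries, genes with at least 20 UMIs over both were described by a log2 ratio with 50 CPM added. Genes named were the 12 with the lowest p in each direction, the 8 highest and lowest ratios, and members of the lists. Genes whose copies are nearly identical, such as Ctla2a with Ctla2b or the Ly6c, Ms4a, granzyme and chemokine families, may share reads. Alternatives were DESeq2 1.42.0, no block, other filters, each library left out, thinning to 1000 UMIs and the removal of doubtful cells.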

Additional observations from a re-analysis of the deposited data

How the results depend on the processing

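Cd8b1-positive against Cd4-positive cells gave 20 calls. Without the library as a replicate block edgeR called 3 genes, DESeq2's Wald test 3 and a filter of 50 UMIs 9. Leaving out 1 library gave between 2 and 15 calls, with 2 without P45, 7 without P50, 6 without P63 and 15 without P50_Depil5D. Without cells with 3 or more class II UMIs 8 genes were called, with cells thinned to 1000 UMIs 5, thinned without mixed cells 5, and without mixed, shared-barcode and low-share cells 5. Members against Ctla2a-high T cells gave 267 calls, 275 without the replicate block, 104 by the Wald test and between 126 and 352 with 1 library left out, of which 164 without P50 and 126 without P50_Depil5D. Cd4-positive members against regulatory-rule cells gave 8 calls. These became 0 without the replicate block, 5 with DESeq2's size factors, 0 by the Wald test, 0 with a filter of 50 UMIs (33 genes at an unadjusted p under 0.05), between 0 and 19 with 1 library left out, of which 12 without P63, 13 without shared barcodes, 4 without Scrublet cells, 2 without class II cells and 4 without mixed, shared and low-share cells. Genes past 2-fold in P50_Depil5D over P50 went to 6 of 47 at 50 UMIs. In P80 over P45 they went to 120 of 319 at 50 UMIs, 482 without shared barcodes and 103 without mixed cells. Taken of CD3-positive cells, members were 4.28% of P50_Depil5D, 4.19% of P45, 2.27% of P50, 9.72% of P63, 3.85% of P80 and 4.13% of all libraries. Of all cells they were 1.03% of P45 without mixed cells, and, with cells thinned, 0.887% of P45, 0.595% of P50, 2.12% of P63 and 1.18% of all libraries. Reversed were Apoe without mixed cells (log2 fold change 0.042), H2-Ab1 without mixed cells (0.19) and without mixed, shared and low-share cells (0.52), Cd74 in P80 over P45 without mixed cells (1.24) and Sfn without shared barcodes (-2.41). Apart from mixed cells, whose UMIs these genes lost, the cause was not tested. Of 773 values of single genes under the alternatives 580 kept their call, 190 lost it and 3 reversed. The fits without P80 were not run for the 2 comparisons that P80 does not enter. Depth limits the rest: most members have 1 coreceptor UMI, and P80 has 4 members without mixed cells.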
